A study of Zea mays with 12 samples.

Results

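Polysome RNA of B73 maize was set against total RNA of the same inbred line, with 2 libraries of each kind. The comparison takes every annotated feature of the B73 tables with an FPKM (fragments scaled by feature length and library size) of 1 or more in 2 or more of the 4 libraries, which 19342 of the 45577 listed features met. The libraries come from a series of 12 samples on B73 and a second inbred line, Mo17, which asks how m6A methylation of RNA varies between the lines and relates to translational status. All plants were seedlings 14 days old, kept in cycles of 16 h at 28 °C in the light and 8 h at 25 °C in the dark, with no other treatment and no transgene named in the labels. The polysome libraries were made from polysome-bound RNA and the RNA libraries from total RNA, and the labels give polyA RNA as the molecule of both. Whether the replicates were separate plants is not in the labels, and p-values cover the spread between these libraries alone, and that spread may be technical.

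A polysome is an mRNA that carries several ribosomes at once, and polysome profiling recovers such RNA by its weight. RNA of ribosomes themselves and the transfer RNAs that they use can come along, while RNAs that stay in the nucleus or are not translated are expected mainly in the total pool. A ratio of polysome to total RNA for an mRNA is commonly read as a measure of ribosome loading, and it is relative to the other RNAs of the same library. Fewer cells of a type and less RNA per cell cannot be told apart in such bulk samples. The identifiers are not paired with gene names in the tables used here, so the seedling label was not checked against marker genes, and gene models are described below by position, span and level. Positions are in B73 RefGen_v4, and span is the distance from a feature's start to its end, introns included.

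The listed features carry 3 kinds of identifier: 43788 gene models (Zm00001d), 1635 features with ENSRNA identifiers, which Ensembl gives to non-coding RNA genes it predicts, and 154 microRNA genes (zma-MIR). Of these, 18878 gene models, 452 ENSRNA features and 12 microRNA genes passed the FPKM filter. Most of the 19342 tested features, 18052, reached an FPKM of 1 in polysome and RNA libraries alike, while 522 reached it in polysome libraries alone and 768 in RNA libraries alone. Across features, the log2(FPKM + 1) values had a Pearson correlation of 0.975 between the polysome replicates, 0.975 between the RNA replicates and 0.846 to 0.868 between polysome and RNA libraries. The tables give FPKM and no counts, so sequencing depth is unknown and counting intervals cannot be given.

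Many more features were higher than lower in polysome RNA, but the lower ones reached much larger differences. Calls needed a limma p under 0.05 after Benjamini-Hochberg adjustment and an absolute log2 ratio of polysome over total RNA of at least 1, on the log2(FPKM + 1) scale. By that rule 3220 features (16.6% of those tested) were higher and 1036 (5.36%) were lower in polysome RNA. Without the first RNA library the higher calls numbered 1961, and without the second 2001. Of the higher calls, 96.5% had a log2 ratio between 1 and 2, and 112 reached 2 or more. Of the lower calls, 265 had a log2 ratio of -3 or less. The 768 features that passed the filter through RNA alone could only be lower, and the 522 through polysome RNA alone only higher. With an FPKM of at least 1 in all 4 libraries, 2959 of 16234 features were called higher and 564 lower.

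The zero point of the ratio depended on how the libraries were scaled. The median log2 ratio over all tested features was 0.29, with 0.38 for the libraries numbered 1 and 0.18 for those numbered 2 (SD 0.14, n = 2). Scaling by the median of log ratios moved it to 0.07, and scaling to an equal sum over gene models moved it to -0.19. Higher features were 75.7% of all calls as deposited, 54.5% with the first scaling and 21.4% with the second. The groups below are therefore read against the median of all tested features, and differences between groups against each other.

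Gene models fell into 2 groups of span that differed strongly in their ratio. A first group of 2251 listed gene models spanned at most 110 bp, 1960 of them between 70 and 75 bp, and 41537 were longer. The limit of 110 bp was chosen after the spans were seen, and it lies in a gap, since 2 gene models were listed between 96 and 110 bp and 6 between 111 and 150 bp. A span just above 70 bp is the length of many plant transfer RNAs, but the tables do not say what these models encode. Of the 2251 short models 202 were tested, with a median log2 ratio of -2.55 (-2.60 and -2.53 for the library numbers 1 and 2, SD 0.046, n = 2). The 18676 longer models tested had a median of 0.32 (0.41 and 0.21, SD 0.15, n = 2), which turned to -0.17 with the equal sum over gene models. In the short group 171 of 202 were called lower and 2 higher, and in the longer group 496 were called lower and 3207 higher. With the equal sum over gene models the balance in the longer group turned, to 1935 lower and 681 higher, while in the short group 179 were lower and 0 higher. The short models held 0.136% and 0.121% of the summed FPKM in the polysome libraries, against 1.90% and 1.76% in the RNA libraries.

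**Figure D1:**
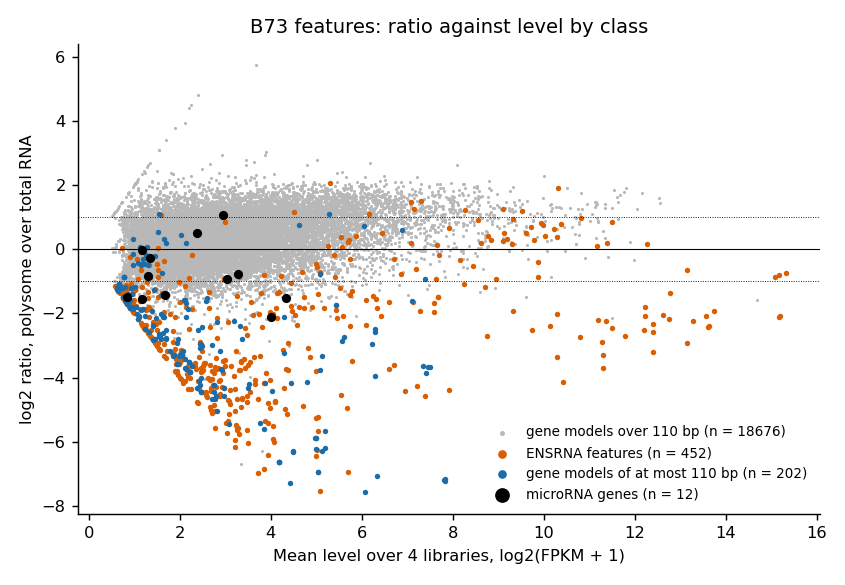
Each point is 1 tested B73 feature, with its mean level over the 4 libraries in log2(FPKM + 1) on the x axis and its log2 ratio of polysome over total RNA on the y axis; dotted lines mark log2 ratios of 1 and -1. Blue short gene models and orange ENSRNA features lie mostly below -1, while the 18676 grey longer gene models centre on 0.32, a value that became -0.17 with the equal sum over gene models; the sloping lower edge is the limit set by features near 0 in polysome RNA.

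The short models were low in polysome RNA at every level of abundance. In 3 equal bins of mean level, the median log2 ratio was -1.29 in the lowest, -2.94 in the middle and -4.22 in the highest bin, and 50 of 67, 60 of 68 and 61 of 67 models were called lower. The smaller values at low levels are bounded by the pseudocount of 1. Many of the 202 passed the filter through RNA alone, 115 of them, so the group was also taken with an FPKM of at least 1 in all 4 libraries. The 66 short models left then had a median of -2.98, and 52 were called lower. With no filter at all the median of the short models was -0.24, and with a pseudocount of 0.1 it was -4.25. Some short models may share reads with near-identical copies: 25 of the 202 fell into 9 sets whose 4 values differed by less than 0.01 on the log2 scale.

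The short model Zm00001d028301 (chromosome 1, 29685314 to 29685387, minus strand, 74 bp) had the lowest log2 ratio of all gene models called. Its FPKM was 3.66 and 4.13 in the polysome libraries, against 1006 and 868 in the RNA libraries, and the log2 ratio was -7.58 (SE 0.16; limma adjusted p = 6.12e-06). A trio of 72-bp models on chromosomes 3, 5 and 2, Zm00001d044070, Zm00001d017105 and Zm00001d004752, had almost the same values as one another. Their FPKM lay between 17.2 and 18.6 in the polysome libraries, against 2615 to 2893 in the RNA libraries. They may share reads, in which case they would not be separate observations. The 10 gene models with the lowest ratios included 9 that spanned at most 74 bp.

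In a cluster of short models on chromosome 5 not all neighbours were called lower. Between 215846479 and 215853041 lie 8 tested short models, of which 5 were called lower. Among those not called, Zm00001d018171 and Zm00001d018172, both of 72 bp, had little signal in any library. In total RNA they had 2.57 and 2.34 FPKM and 1.16 and 2.01 FPKM, levels at which the pseudocount of 1 bounds the ratio. Zm00001d018169 (71 bp, plus strand, with an ENSRNA feature of the same coordinates) had 1.51 and 2.54 FPKM in polysome RNA, against 352 and 373 in total RNA. Zm00001d018175 (74 bp, plus strand) had 2.46 and 3.58 FPKM in polysome RNA, against 312 and 305 in total RNA. The 88-bp model Zm00001d018168 at the same place, by contrast, had 119 and 122 FPKM in polysome RNA, against 224 and 232 in total RNA, and its log2 ratio of -0.92 was short of the fold threshold (limma adjusted p = 0.0033).

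ENSRNA features were lower in polysome RNA as a class, with a median log2 ratio of -2.36 (-2.41 and -2.25 for the library numbers 1 and 2, SD 0.11, n = 2). Of the 452 tested, 365 were called lower and 11 higher. They made up 2.34% of the features tested and 35.2% of the lower calls, and the short gene models made up 1.04% and 16.5%. The extreme end was almost all of these 2 kinds: of the 265 features at a log2 ratio of -3 or less, 178 were ENSRNA features, 79 were short gene models and 8 were longer gene models. Of the tested ENSRNA features 183 passed the filter through RNA alone, and the 216 with an FPKM of at least 1 in all 4 libraries had a median of -1.83, with 140 called lower. The median of the class was -1.26 with no filter and -3.83 with a pseudocount of 0.1. All lower calls of any class together numbered 564 under that stricter filter.

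Within the ENSRNA class the ratio differed with span. The 90 features of 86 to 100 bp had a median log2 ratio of -3.49, and 87 of them were called lower. The 17 features of exactly 161 bp had the lowest median of the 13 bins of span, -4.61, with a range from -7.54 to 1.89. All 17 features of 197 bp were called lower, with a median of -2.56. The 39 listed features of that span summed to 8.44 and 5.15 FPKM in polysome RNA, against 234 and 265 in total RNA. Some of the 17 therefore passed the filter through RNA alone and could only be lower. The 183 ENSRNA features that passed in that way were not separated by span, so the counts of lower calls in these bins include them. The 37 features of 119 bp had a median of -1.83, and the 48 of 63 to 85 bp a median of -1.53. Summed, the 161-bp features held 0.474% and 0.432% of the summed FPKM in the polysome libraries, against 0.224% and 0.251% in the RNA libraries, and the member at the upper end of their range, ENSRNA049478241, is described below. Features of the same span may share reads, and such groups would then hold fewer separate observations than features.

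The longest ENSRNA features had a higher median than any shorter bin of span, and most of them lay in 1 block of chromosome 6. The 27 features of 1001 to 1812 bp had a median log2 ratio of 0.38 (0.61 and 0.14, SD 0.33, n = 2), and 4 were called higher and 3 lower. The 22 in that block, described below, had a median of 0.51 (0.63 and 0.39), and the 5 outside it, which were the more abundant, had a median of -0.86 (-0.81 and -0.91) with none above 0. All 27 together held 11.59% and 10.96% of the summed FPKM in the polysome libraries, against 14.60% and 14.95% in the RNA libraries. The 301 to 1000-bp features held 5.53% and 5.13%, against 16.2% and 16.4%, and those of exactly 156 bp held 5.07% and 5.43%, against 13.7% and 15.1%. The share of the longest features therefore differed least between polysome and total RNA among these 3 abundant sizes.

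**Figure D2:**
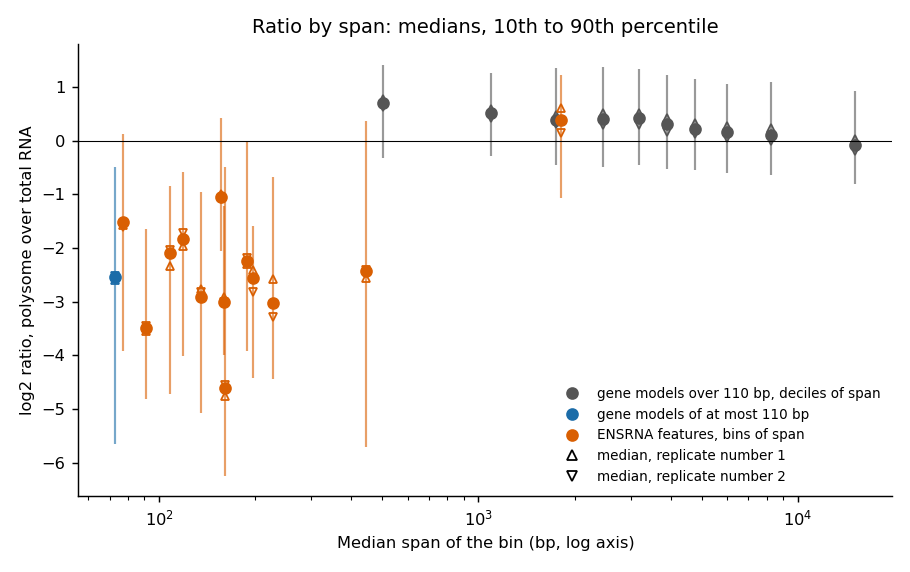
Median log2 ratio of polysome over total RNA (y axis) against the median span of each bin in bp (x axis, log scale) for 202 short gene models, 10 equal bins of longer gene models and 13 bins of span of ENSRNA features; lines run from the 10th to the 90th percentile, and open triangles give the medians of the libraries numbered 1 and 2. Bins below 1000 bp hold medians from -4.61 to -1.05 for ENSRNA features and 0.70 for the shortest longer gene models, a value that became 0.21 with the equal sum over gene models.

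ENSRNA features in a block of chromosome 6 differed from those elsewhere. The short arm of maize chromosome 6 carries the nucleolus organiser, the tandem array of ribosomal RNA genes. Between 12748054 and 25466485 on this chromosome lay 69 tested ENSRNA features with a median log2 ratio of 0.14 (0.06 and -0.10 for the library numbers 1 and 2), of which 9 were called higher and 17 lower. The 383 tested elsewhere had a median of -2.74 (-2.80 and -2.77), with 2 called higher and 348 lower. The block was delimited after the positions of the higher calls were seen, so its share of them is a description. It also held 22 of the 27 features over 1000 bp and 19 of the 21 of 156 bp. The 47 features of up to 1000 bp in the block had a median of -0.56, with 5 called higher and 16 lower. Features of the block were also more abundant, with a median mean FPKM of 249, against 13.0 elsewhere. Of the 11 higher calls in the class, 10 lay in the highest of 3 equal bins of level. With the median of log ratios scaling 4 ENSRNA features of the 11 were left as higher calls in all, and with the equal sum over gene models 2.

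Members of the block varied around that median. ENSRNA049478241 (12757262 to 12757422, minus strand, 161 bp) had 2570 and 2308 FPKM in polysome RNA, against 620 and 692 in total RNA. Its log2 ratio was 1.89 (SE 0.14; limma adjusted p = 0.000295), while 15 of the 17 features of that span were called lower. ENSRNA049478106 (13586548 to 13588358, minus strand, 1811 bp) had 86.8 and 73.6 FPKM in polysome RNA, against 18.0 and 19.0 in total RNA. It overlaps 5 gene models on the same strand, among them Zm00001d001300, which had 2.20 and 2.10 FPKM in polysome RNA, against 6.66 and 6.54 in total RNA. Overlapping spans can divide the same fragments, and opposite ratios of overlapping features cannot be assigned to separate transcripts from these tables.

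The most abundant features of all lay at a pair of loci outside the block. ENSRNA049479549 (chromosome 10, 35065498 to 35065653, plus strand, 156 bp) had 17446 and 18902 FPKM in polysome RNA, against 73116 and 81115 in total RNA (log2 ratio -2.08, SE 0.14, limma adjusted p = 0.000199). ENSRNA049479266 on chromosome 2 (157588200 to 157588355, plus strand, also 156 bp) had nearly identical values in every library, with a log2 ratio of -2.10. Next to each lies a longer feature on the same strand, ENSRNA049479540 (1811 bp) on chromosome 10 and ENSRNA049479257 (1810 bp) on chromosome 2. ENSRNA049479540 had 32046 and 31461 FPKM in polysome RNA, against 52469 and 53512 in total RNA, and its log2 ratio of -0.74 was under the fold threshold. At both loci the 156-bp feature was thus further down in polysome RNA than the longer one, while the near-identical values mean that the loci may share reads.

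The lowest ratios among ENSRNA features were reached at other places. ENSRNA049463813 (chromosome 5, 3433111 to 3433271, plus strand, 161 bp) had 2.40 and 0.809 FPKM in polysome RNA, against 433 and 491 in total RNA. Its log2 ratio of -7.54 ± 0.30 was the lowest of the class (SE; limma adjusted p = 2.57e-05). On chromosome 9, ENSRNA049477080 (20238190 to 20238493, plus strand, 304 bp) had 4.48 and 3.01 FPKM in polysome RNA, against 536 and 610 in total RNA. A further 3 ENSRNA features of 296 to 308 bp in the same stretch, up to 20383890, had log2 ratios from -6.85 to -4.77. Among these, ENSRNA049477082 was at 0.286 and 0.388 FPKM in polysome RNA and passed the filter through RNA alone, so it could only be lower. Of the 7 gene models tested in and next to that stretch none was called lower. Zm00001d045385 was called higher, at 4.45 and 1.90 FPKM in polysome RNA, against 0 and 0.496 in total RNA. It passed the filter through the polysome libraries alone, so it could only be higher.

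Of the 12 microRNA genes tested, 4 were called lower in polysome RNA and 0 higher, and their median log2 ratio was -0.88 (-1.23 and -0.59 for the library numbers 1 and 2, SD 0.45, n = 2). A microRNA gene is transcribed into a precursor that is cut in the nucleus, and the mature microRNA is a short piece of it. Of the 12, 2 passed the filter through RNA alone, and of the 7 with an FPKM of at least 1 in all 4 libraries 2 were called lower. Called lower were zma-MIR408b, zma-MIR156e, zma-MIR398b and zma-MIR393c, with log2 ratios from -2.11 to -1.48. Of the 12, 7 overlapped another feature and may divide fragments with it. Among the called genes, zma-MIR156e, zma-MIR398b and zma-MIR393c each overlapped an ENSRNA feature on the same strand. The feature at zma-MIR156e was called neither way (log2 ratio -0.49). The feature at zma-MIR398b was called lower (-1.13), and the feature at zma-MIR393c was not tested. zma-MIR408b (chromosome 8, 39583938 to 39584084) had 6.19 and 7.32 FPKM in polysome RNA, against 40.9 and 25.8 in total RNA (limma adjusted p = 0.00163). Among the 4 called, zma-MIR156e and zma-MIR393c were under an FPKM of 1 in both polysome libraries, so they could only be tested by being higher in total RNA. Without the first RNA library zma-MIR398b missed the threshold (log2 ratio -1.34, limma adjusted p = 0.0628).

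Replicate spread was wide for several of the other 8 microRNA genes. zma-MIR168a (chromosome 5, 76534928 to 76535031), whose product targets ARGONAUTE1, had 0.498 and 1.54 FPKM in polysome RNA, against 12.2 and 1.07 in total RNA. Its groups overlapped and the log2 ratio of -1.42 was not past the threshold (limma adjusted p = 0.194), although without the second RNA library it was -2.76 (limma adjusted p = 0.0212). With the replicate number as a block zma-MIR168a and zma-MIR399e did pass, with log2 ratios of -1.42 and 1.08 and limma adjusted p of 0.038 and 0.0391. Both also passed with the numbers crossed between polysome and RNA libraries (limma adjusted p = 0.0225 and 0.0163), so the passes did not depend on matched numbers. zma-MIR399e had 8.08 and 12.8 FPKM in polysome RNA, against 8.56 and 1.93 in total RNA. zma-MIR528a (chromosome 1, 6412284 to 6412406) had 3.45 and 7.08 FPKM in polysome RNA, against 10.2 and 10.6 in total RNA, a log2 ratio of -0.93. It was past the adjusted p threshold (limma adjusted p = 0.0481) but not the fold threshold. zma-MIR169i, at 0.900 and 1.65 FPKM in polysome RNA, against 1.52 and 1.06 in total RNA, had a log2 ratio of -0.02.

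Among the longer gene models, shorter spans went with higher ratios. In 10 equal bins of span the median log2 ratio was 0.70 in the shortest (132 to 802 bp), 0.41 in the middle (2821 to 3550 bp) and -0.08 in the longest (10508 to 93328 bp). The difference between the shortest and the longest bin was 0.78, with 0.73 for the libraries numbered 1 and 0.82 for those numbered 2 (SD 0.06, n = 2), so the replicate spread was much the smaller. The share called higher was 28.4% in the shortest bin and 7.82% in the longest, and the share called lower was 2.78% and 5.62%. With the equal sum over gene models 99 of 1869 were higher and 119 lower in the shortest bin, and 26 of 1868 higher and 380 lower in the longest. Over all 18878 gene models, with the 202 short ones included, the difference was 0.70, and with no filter on low values it was 0.06. The order was not strictly monotonic, since the bin of 1415 to 2086 bp had a median of 0.38 and the next of 2087 to 2820 bp had 0.39. Across these 18676 genes the Spearman correlation of the ratio with span was -0.26, a description over genes that share the same 4 libraries.

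Gene models on either side of the gap in span differed in their ratio, though few were tested next to it. Gene models of 86 to 95 bp had a median log2 ratio of -3.41 over 18 tested models, and none was tested between 96 and 110 bp. The 4 models of 111 to 150 bp had a median of 0.17, with 0.70 and -0.30 for the library numbers 1 and 2, so its sign was not stable, and the 17 models of 151 to 200 bp a median of 0.47. The 219 models of 201 to 300 bp had a median of 0.72, and 71 of them were called higher and 10 lower.

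Abundant gene models had higher ratios than scarce ones. In 10 equal bins of the mean log2(FPKM + 1) over the 4 libraries, the median log2 ratio of longer gene models was 0.03 in the lowest bin and 0.96 in the highest, a difference of 0.93 (0.85 and 1.03 for the library numbers 1 and 2, SD 0.13, n = 2). The share called higher was 46.9% in the highest bin and 5.94% in the lowest. With the equal sum over gene models 224 of 1868 were higher and 106 lower in the highest bin, and 61 higher and 137 lower in the lowest. The polysome level is part of both the bin and the ratio. When the bins were taken from 1 RNA library and the ratio from the other, over all gene models, the difference was 0.44 or 0.35, against 0.94 with the bins of all 4 libraries. With a filter at an FPKM of 5 in place of 1 it was 0.55. A pseudocount of 1 also draws the ratios of scarce models towards 0, but with a pseudocount of 0.1 the difference over all gene models was 0.93.

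**Figure D3:**
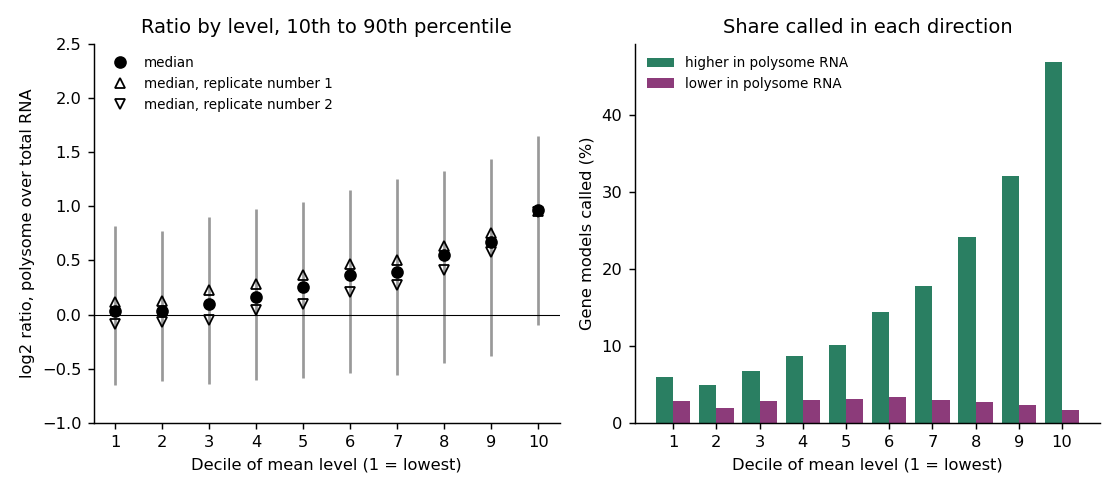
Left, the median log2 ratio of polysome over total RNA (y axis) in 10 equal bins of mean level of longer gene models (x axis, lowest first), with lines from the 10th to the 90th percentile and open triangles for the medians of the libraries numbered 1 and 2; right, the percentage of gene models in each bin called higher (green) and lower (purple) in polysome RNA. The median is 0.03 in the lowest and 0.96 in the highest bin (-0.26 and 0.36 with the equal sum over gene models), and the higher calls make up 5.94% and 46.9% of these bins.

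Span and level were related to the ratio side by side. Longer gene models were placed in 5 equal bins of span and 5 of level. The shortest and most abundant models (959 in this cell) had a median log2 ratio of 0.98, with 448 called higher, and the longest and scarcest (861) had a median of -0.18, with 22 called higher. Among the most abundant models the median was 0.98 in the shortest and 0.57 in the longest span bin. Among the scarcest it was 0.25 in the shortest and -0.18 in the longest. The difference with span was thus present at both ends of the level range, and the difference with level at both ends of the span range; neither was tested.

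Chromosomes differed little in the ratio of longer gene models. Their median log2 ratio lay between 0.29 on chromosome 9 and 0.34 on chromosome 8, and the share called higher between 15.2% on chromosome 2 and 19.0% on chromosome 8. Over all gene models, the short ones included, the highest chromosome exceeded the lowest by 0.06 (SD 0.024, n = 2), and leaving out each library in turn gave 0.04 to 0.06. The chromosomes were ranked on these same values, so this difference is a description. Gene density within 1000000 bp on each side made little difference as well, with medians of 0.28 to 0.34 over 5 bins, and so did strand, with 0.32 on the plus and 0.31 on the minus strand. ENSRNA features ranged more widely, from a median of -3.64 on chromosome 5 to -0.63 on chromosome 6, where 96 were tested and the block described above lies. The short gene models ranged from -3.05 on chromosome 1 to -1.08 on chromosome 4, over 9 to 34 models a chromosome.

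**Figure D4:**
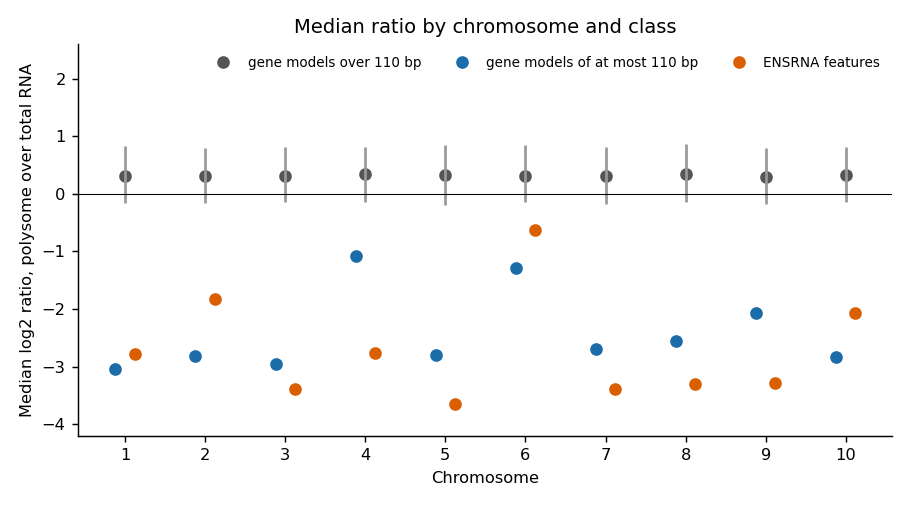
Median log2 ratio of polysome over total RNA (y axis) for longer gene models (grey, with lines over the middle 50% of models), short gene models (blue) and ENSRNA features (orange) on chromosomes 1 to 10 (x axis). The grey medians stay between 0.29 and 0.34, while the ENSRNA median is -0.63 on chromosome 6 and between -3.64 and -1.83 on the others.

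Gene models that share their place with another on the same strand had more lower calls. Of 556 longer models overlapping another feature on the same strand, 6.47% were called lower and 18.9% higher, with a median log2 ratio of 0.21. Of 17066 without an overlap, 2.51% were called lower and 17.1% higher, with a median of 0.32. Models with an overlap on the opposite strand alone (1054) had 3.04% called lower. Median spans were 4857.5 bp with a same-strand overlap, 3436 bp without an overlap and 5215 bp with an opposite-strand overlap alone. The part of span in these differences was not tested, nor were the differences. The sources used here do not say whether counting used strand, and such pairs may divide reads. Calls were not strongly clustered along the chromosomes: the next tested model was called higher for 18.7% of the higher models, against 17.2% of all longer models, and the next was called lower for 4.44% of the lower models, against 2.66%.

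The most abundant gene models called higher were all between 739 and 1510 bp long. Zm00001d049387 (chromosome 4, 28605301 to 28606526, minus strand) had 9819 and 10847 FPKM in polysome RNA, against 3522 and 3318 in total RNA (log2 ratio 1.59, SE 0.13, limma adjusted p = 0.00052). Zm00001d023516 (chromosome 10, 8543363 to 8544872, minus strand) had 7047 and 6900 FPKM in polysome RNA, against 1951 and 1788 in total RNA, a log2 ratio of 1.90. Zm00001d023529 (chromosome 10, 8781222 to 8782218, minus strand) had 9006 and 7981 FPKM in polysome RNA, against 2442 and 2546 in total RNA. In all of these the libraries of the groups lay far apart. Zm00001d023516 and Zm00001d023529 were the called ones of 6 tested features in the stretch of chromosome 10 that they bound. The stretch was set by these 2 models, so this is a description. Of all longer models 17.2% were called higher.

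A further pair of abundant models, Zm00001d018797 and Zm00001d048611, had log2 ratios of 1.44 and 1.26. Zm00001d018797 (chromosome 7, 5387875 to 5388613, plus strand) had 8509 and 11462 FPKM in polysome RNA, against 3832 and 3440 in total RNA. Its call was lost without the second RNA library (limma adjusted p = 0.0562), and that of Zm00001d048611 without the first (limma adjusted p = 0.0556). With the equal sum over gene models, the log2 ratios of Zm00001d049387, Zm00001d018797 and Zm00001d048611 were 0.98, 0.83 and 0.64, under the fold threshold. Over the 100 most abundant longer gene models the median log2 ratio was 1.05, with 53 called higher and 3 lower.

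The most abundant gene model called lower lies on chromosome 7 in a locus where most features were lower. Zm00001d001139 (46263322 to 46263932, plus strand, 611 bp) had 16018 and 14504 FPKM in polysome RNA, against 44698 and 47190 in total RNA (log2 ratio -1.59, SE 0.14, limma adjusted p = 0.000569). Zm00001d019605 (46267841 to 46280742, minus strand, 12902 bp) had 1525 and 1235 FPKM in polysome RNA, against 6184 and 6039 in total RNA, a log2 ratio of -2.15. It overlaps the short models Zm00001d019606, Zm00001d019607 and Zm00001d019608, which were also called lower. Zm00001d019606 and Zm00001d019607 were under an FPKM of 1 in both polysome libraries, so they could only be tested by being higher in total RNA. Of the 8 tested features between 46260386 and 46280742, 7 were called lower, 4 of them short models, a count that includes Zm00001d019606 and Zm00001d019607. The exception, ENSRNA049477727 (77 bp), had 56.5 and 48.6 FPKM in polysome RNA, against 38.6 and 41.5 in total RNA.

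Some abundant gene models did not pass in either direction. Zm00001d011183 (chromosome 8, 142217718 to 142219220, minus strand) had 1014 and 1082 FPKM in polysome RNA, against 1212 and 986 in total RNA (log2 ratio -0.06, SE 0.15, limma adjusted p = 0.773). Zm00001d033132 and Zm00001d033136 on chromosome 1 (251722257 to 251723494 and 251754657 to 251755894) have the same span and almost identical values and may share reads. Zm00001d033132 had 1391 and 2299 FPKM in polysome RNA, against 1711 and 1479 in total RNA.

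The largest ratios upward were found in models with little or no RNA signal. Zm00001d045578 (chromosome 9, 27179112 to 27180859, plus strand) had 107 and 80.4 FPKM in polysome RNA, against 0.566 and 0.995 in total RNA, a log2 ratio of 5.73. It lies wholly within Zm00001d045577 on the same strand (27179019 to 27181458), which had 1.26 and 1.44 FPKM in polysome RNA, against 24.5 and 25.1 in total RNA, a log2 ratio of -3.46. The nested pair thus had opposite ratios, and whether the fragments were assigned alike in the polysome and RNA libraries cannot be seen from the tables. Of the 10 models with the largest ratios, 3 overlapped another on the same strand and 6 were listed at 0 in both RNA libraries. Zm00001d045578, Zm00001d027021, Zm00001d003494 and those listed at 0 passed the filter through the polysome libraries alone, so they had to be higher there. Of the 10, only Zm00001d051564, described below, reached an FPKM of 1 in total RNA. Zm00001d035625 (chromosome 6, 37482838 to 37483682, minus strand) had 17.4 and 26.3 FPKM in polysome RNA and was listed at 0 in both RNA libraries. Zm00001d017489 (chromosome 5, 197377558 to 197378986, plus strand) had 14.5 and 28.3 FPKM in polysome RNA and was likewise listed at 0 in total RNA.

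Longer models with an FPKM of at least 1 in all 4 libraries and no overlap were looked at apart from these, by a rule added after the values were seen. Zm00001d051564 (chromosome 4, 162881281 to 162886758, minus strand, 5478 bp) had 40.3 and 42.9 FPKM in polysome RNA, against 3.32 and 5.29 in total RNA. Its log2 ratio of 3.03 ± 0.23 was the largest of that kind (SE; limma adjusted p = 0.000311). Zm00001d048833 (chromosome 4, 6134868 to 6138876, plus strand) had 31.2 and 22.7 FPKM in polysome RNA, against 3.17 and 3.72 in total RNA. Zm00001d033846 (chromosome 1, 275610676 to 275610975, plus strand, 300 bp) was uneven, at 192 and 36.8 FPKM in polysome RNA, against 15.3 and 8.49 in total RNA. Its call did not hold without either RNA library (limma adjusted p = 0.072 and 0.13).

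Large ratios were rare among longer models in both directions. An absolute log2 ratio from 3 to under 4 was found for 6 models called higher and 5 called lower. At 4 or more there were 4 higher and 3 lower, out of 3207 higher and 496 lower calls. Zm00001d046001 (chromosome 9, 53138576 to 53140508, plus strand, 1933 bp) was listed at 0 in both polysome libraries, against 106 and 101 FPKM in total RNA, with no overlap, and it passed the filter through RNA alone. Of the 8 longer models at a log2 ratio of -3 or less, 5 overlapped another feature. Zm00001d046962 (chromosome 9, 113277961 to 113279886, minus strand) did not overlap and had 1.69 and 2.89 FPKM in polysome RNA, against 34.6 and 24.6 in total RNA (log2 ratio -3.22, SE 0.27, limma adjusted p = 0.000475). Zm00001d034153 (chromosome 1, 285223932 to 285225231, minus strand) had 8.66 and 4.60 FPKM in polysome RNA, against 59.8 and 58.2 in total RNA. Zm00001d035969 (chromosome 6, 63517496 to 63518039, minus strand) had 4.38 and 5.19 FPKM in polysome RNA, against 38.6 and 43.5 in total RNA. These 3 had polysome libraries far below both RNA libraries.

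**Figure D5:**
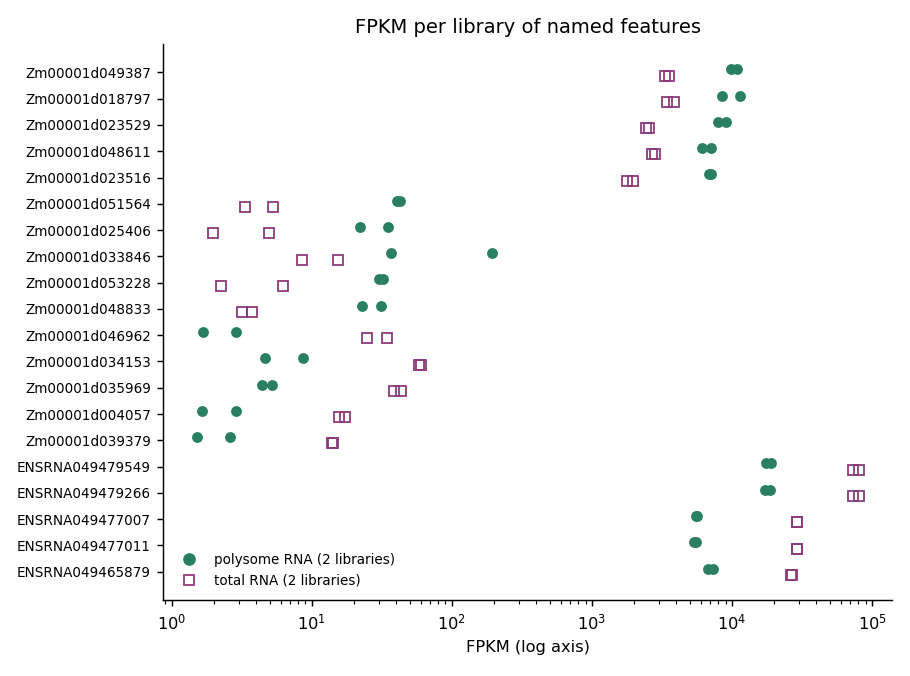
FPKM of 20 named features (rows) in each library on a log x axis, with filled green circles for the 2 polysome libraries and open purple squares for the 2 RNA libraries. The upper 10 rows are gene models called higher, with polysome circles to the right of the RNA squares, and the lower 10 are gene models and ENSRNA features called lower, with circles to the left; Zm00001d033846 in the eighth row has the widest gap between its polysome libraries, 192 and 36.8 FPKM.

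The longest called gene models included both directions, but part of this was set by the filter. The 3 longest called lower had 0.572 to 0.979 FPKM in polysome RNA. They passed the filter through RNA alone, so they could only be lower. Zm00001d006382 (chromosome 2, 206162736 to 206214491, plus strand, 51756 bp) had 3.70 and 5.62 FPKM in polysome RNA, against 0.531 and 0.644 in total RNA, and it passed the filter through the polysome libraries alone. Zm00001d047074 (chromosome 9, 117367859 to 117454573, plus strand, 86715 bp) had 0.815 and 0.979 FPKM in polysome RNA, against 5.75 and 3.84 in total RNA, and it passed through the RNA libraries alone. Zm00001d018704 (chromosome 7, 2767046 to 2847029, plus strand, 79984 bp) had 38.0 and 25.3 FPKM in polysome RNA, against 12.8 and 14.4 in total RNA. Its log2 ratio of 1.13 fell under the fold threshold without the first polysome library (0.85), and it missed the adjusted p threshold without either RNA library (limma adjusted p = 0.0896 and 0.068).

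Peaks of m6A, an RNA modification often found near the 3′ end of transcripts, were present more often in longer gene models called higher. A peak summit in the span in both m6A samples was found for 57.0% of 3207 higher models, 48.1% of 14973 models called neither way and 42.5% of 496 lower models. Median spans were 2634, 3753 and 4450 bp in these 3 groups, and median levels 3.99, 2.41 and 2.55 in log2(FPKM + 1). Among models from 2000 bp to under 5000 bp the shares were 77.4%, 48.8% and 32.3%, with median levels of 4.07, 2.57 and 2.84. Among those of at least 5000 bp they were 90.6%, 79.3% and 70.1%. The order was the same in these span groups. Level and span also differed between the groups, and their part in the result was not tested.

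The second inbred line gave like differences with span and level around another zero point. The median log2 ratio over all tested features was 0.29 in B73, against -0.36 over the 20208 Mo17 features that passed the same filter. The lines have tables with separate identifiers and spans. Mo17 features were all counted as gene models, while those of B73 included 452 ENSRNA features and 12 microRNA genes. The shortest bin of span exceeded the longest by 0.78 (SD 0.06, n = 2) in B73, against 0.71 (SD 0.24, n = 2) in Mo17. The highest bin of level exceeded the lowest by 0.93 (SD 0.13, n = 2) in B73, against 0.82 (SD 0.002, n = 2) in Mo17. Gene models of at most 110 bp had a median of -2.55 over 202 tested in B73, against 0.05 over 51 tested in Mo17. The B73 table lists 1960 models of 70 to 75 bp, against 43 in the Mo17 table, so these groups are not made up alike, and no difference between the lines was tested.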

How the data were processed

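Polysome RNA and total RNA of B73 seedlings were each measured in 2 libraries. Expression was deposited by the authors in 1 table per sample, with the FPKM, position, strand and span of each feature. Each m6A sample has a peak list, deposited by the authors with a fold enrichment (a ratio), a −log10 p and a −log10 q, an integer score and a summit offset; the positions and summit offsets were used here. Named in the submitters' processing notes are the build B73 RefGen_v4 and the tools HISAT2, Trimmomatic 0.35 and MACS2. The sources used here do not give the annotation, the way FPKM were computed, the strand option or the handling of multi-mapped reads.

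From these values, log2(FPKM + 1) was fitted by limma 3.58.1 in R 4.3.3, with a trend, to the 4 libraries with 2 residual degrees of freedom, without a block, for features at an FPKM of 1 or more in 2 or more libraries, with Benjamini-Hochberg adjustment over all 19342. Ratios on this scale understate the change of low features. An exact permutation test of 2 against 2 libraries cannot go below p = 0.333, so none is given for single values. Medians over features are given for the libraries numbered 1 and 2 and their SD, which sets same-numbered libraries together though they are not known to be paired. A feature listed with differing spans was left out (1). A peak counted for a feature if no other feature's span held its summit. Tables were handled with pandas 2.3.3 in Python 3.11.15, and the fit was tested on simulated data. The reference table, of another assembly, matched 153 of 154 microRNA genes and 0 of 43788 gene models and 0 of 1635 ENSRNA features by name, so gene lists that rest on descriptions had 0 members.

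The members, groups and lists were chosen with earlier results of these data known. Named were the 10 gene models with the largest and the 10 with the smallest ratio among calls whose libraries do not overlap, the 5 most abundant called each way, the 5 most abundant uncalled ones with an absolute log2 ratio under 0.2, the 3 longest called each way, the 5 most abundant and 3 most extreme called ENSRNA features each way and every tested microRNA gene. Those described in the text are a part of these. The limit of 110 bp, the loci, the chromosome 6 block and the 5 non-overlapping models each way with an FPKM of at least 1 in all 4 libraries were added after values were seen. Alternatives covered the pseudocount, filters on low values, library scaling, replicate blocks, overlapping spans, the limma trend and leaving out each library.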

Additional observations from a re-analysis of the deposited data

Results flagged for a closer look

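The median log2 ratio of polysome over total RNA lay on opposite sides of 0 in the 2 inbred lines, in both library numbers of each. Over all tested features it was 0.29 in B73 and -0.36 in Mo17, and over gene models longer than 110 bp it was 0.32 in B73 and -0.36 in Mo17. No test was made of this difference, since the tables of the lines list different features. The 20208 Mo17 features tested were all counted as gene models, 51 of at most 110 bp and 20157 longer. In B73 the ENSRNA features held 60.5% and 62.1% of the summed FPKM in the RNA libraries, against 26.5% and 25.8% in the polysome libraries. When B73 libraries were scaled to an equal sum over gene models the sign turned, to -0.19 over all tested features and -0.17 over longer gene models.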

How the results depend on the processing

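FPKM are shares of a library, and the median over all tested features moved most with scaling among the alternatives run. With the median of log ratios scaling 1751 features were higher and the medians were 0.07 (all features), 0.08 (gene models), -2.51 (ENSRNA features) and -2.74 (gene models of at most 110 bp), and the difference between the highest and lowest abundance bins of gene models was 0.79. With an equal sum over gene models 683 were higher and 2511 lower, the medians were -0.19, -0.18, -2.74 and -2.97 in the same order and -1.39 for microRNA genes, and the abundance difference was 0.61. With a filter of FPKM 5 in place of 1 the medians were 0.54 (all), 0.56 (gene models), -3.15 (ENSRNA) and -3.52 (short models), the abundance difference was 0.55 and the difference between the highest and lowest chromosome 0.11. With no filter the medians were 0.09 (all), 0.10 (gene models), -1.26 (ENSRNA), -0.07 (microRNA) and -0.24 (short models), and the difference between the shortest and longest span bins was 0.06. A pseudocount of 0.1 gave -3.83 (ENSRNA), -4.25 (short models) and 0.86 (span), while the abundance difference was 0.93. With an FPKM of at least 1 in all 4 libraries, an alternative chosen after seeing the data, 564 features were lower, and the values were -1.83 (ENSRNA), -2.98 (short models) and 0.77 (span). Without gene models of at most 110 bp, also chosen after seeing the data, the span difference was 0.78. Without overlapping features the short models had a median of -2.71. Abundance bins from 1 RNA library and ratios from the other gave 0.44 and 0.35. The cause of these shifts was not tested.

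Leaving out 1 library gave 1961 to 3947 higher and 797 to 1107 lower features. Medians were 0.20 to 0.38 (all), 0.22 to 0.40 (gene models), -2.38 to -2.28 (ENSRNA), -1.13 to -0.73 (microRNA) and -2.67 to -2.46 (short models), and the abundance difference was 0.73 to 1.16. zma-MIR169i, at -0.02 with all libraries, ranged from -0.26 to 0.22. The 5 abundant uncalled gene models, whose ratios are near 0, also changed sign: Zm00001d033132 and Zm00001d033136 ranged from -0.19 and -0.20 to 0.53, Zm00001d021906 from -0.18 to 0.42, Zm00001d035859 from -0.25 to 0.11 and Zm00001d011183 from -0.21 to 0.09. With the median of log ratios scaling Zm00001d033132, Zm00001d033136 and Zm00001d021906 were at -0.12, -0.12 and -0.16, and with the equal sum at -0.45, -0.45 and -0.49. With the replicate number as a block 3349 features were higher and 1057 lower. Deviations of same-numbered libraries had a correlation of -0.13, and the crossed pairing, chosen after seeing the data, gave 3333 and 1056; the numbers are not known to pair the libraries. Of 1032 values for 73 named features under these alternatives, 969 kept their direction and side of the threshold, 36 lost the call, 13 gained one and 14 changed sign. Gene lists were not run, having 0 members. Depth is unknown, so how much it limits low values cannot be given.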
